A study of Mus musculus with 6 samples.

Results

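The genes described here encode the acetylcholine receptor of skeletal muscle and the proteins that cluster it at the neuromuscular junction. They are the subunit genes Chrna1, Chrnb1, Chrnd, Chrng and Chrne, the agrin receptor gene Lrp4, the kinase gene Musk, its adaptor gene Dok7 and the receptor-clustering gene Rapsn. They were chosen by symbol, 9 genes of the 19505 with a symbol on the array, with the brightest probe set taken per gene. Each of the 9 had a single probe set. The choice was made with their difference between the groups already known, so their levels and differences are a description and no p-value is given for them.

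The samples were 3 shRras2 arrays and 3 pLKO arrays of mouse fibrosarcoma cells, a malignant tumor of fibroblast-like cells, of C57BL/6 background. The titles of all arrays carry the same cell label, FS2. The shRras2 cells had been transduced with the shRNA vector sh#89 against Rras2, which encodes a RAS-related GTPase, and the pLKO cells with the empty lentiviral vector. Both groups carried the Q72L form of Rras2 and were grown in DMEM with fetal bovine serum. With a single shRNA, its effects on unintended targets and the loss of Rras2 cannot be told apart. Arrays 1 to 3 were all pLKO and arrays 4 to 6 all shRras2, so a batch that follows these numbers and the group cannot be told apart either. The labels do not tie the 3 arrays of a group to separate cultures, so the spread behind every p-value given here may be technical.

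The muscle acetylcholine receptor is a pentameric ion channel that opens when acetylcholine from a motor nerve binds to it. Fetal and denervated muscle builds it with the gamma subunit (Chrng), and mature innervated muscle replaces gamma by epsilon (Chrne), while alpha (Chrna1), beta (Chrnb1) and delta (Chrnd) are common to both forms. Agrin released by the nerve binds LRP4, which activates the receptor tyrosine kinase MuSK. DOK7 binds MuSK on the inside of the membrane and is needed for its activity, and rapsyn (Rapsn) anchors the receptors in dense clusters. In muscle, the subunit genes are activated by myogenic transcription factors such as MyoD and myogenin, which bind short E-box motifs in their promoters.

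Promoter sequences are shown for 4 subunit genes, 2 whose signals differed most between the groups among those with a sequence at hand (Chrna1 and Chrng) and 2 whose signals differed little (Chrne and Chrnb1). Each runs 5′ to 3′ from 250 bases before to 50 bases after the annotated start, as given by RefSeq for GRCm38.p6. The start used was the outermost base of the annotated gene for Chrna1 and Chrng. For Chrne and Chrnb1 it lay inside the annotated gene. Capitals mark the E-box motifs CAGCTG and CAGGTG, searched on both strands, and in Chrne also the N-box motif CCGGAA, the motif bound by the GABP factor in synaptic genes. Of the 9 genes, 6 were matched to a window in this set: Chrna1, Chrnb1, Chrng, Chrne, Musk and Dok7. No window was at hand for Lrp4, Rapsn and Chrnd, and Chrnd had the largest difference of the 9.
Chrna1, chr2:73580289-73580588, minus strand: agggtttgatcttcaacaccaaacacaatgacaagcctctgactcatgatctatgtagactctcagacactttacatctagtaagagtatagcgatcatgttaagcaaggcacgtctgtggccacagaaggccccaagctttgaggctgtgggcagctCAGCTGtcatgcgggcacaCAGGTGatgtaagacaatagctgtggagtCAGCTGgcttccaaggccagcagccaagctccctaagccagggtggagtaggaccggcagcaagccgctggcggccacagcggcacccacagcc
Chrng, chr1:87205561-87205860, plus strand: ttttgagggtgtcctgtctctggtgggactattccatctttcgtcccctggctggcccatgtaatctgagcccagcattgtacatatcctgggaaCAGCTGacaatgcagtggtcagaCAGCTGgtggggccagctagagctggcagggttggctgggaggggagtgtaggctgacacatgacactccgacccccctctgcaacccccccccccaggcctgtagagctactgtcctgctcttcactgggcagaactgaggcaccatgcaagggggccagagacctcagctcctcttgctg
Chrne, chr11:70619145-70619444, minus strand: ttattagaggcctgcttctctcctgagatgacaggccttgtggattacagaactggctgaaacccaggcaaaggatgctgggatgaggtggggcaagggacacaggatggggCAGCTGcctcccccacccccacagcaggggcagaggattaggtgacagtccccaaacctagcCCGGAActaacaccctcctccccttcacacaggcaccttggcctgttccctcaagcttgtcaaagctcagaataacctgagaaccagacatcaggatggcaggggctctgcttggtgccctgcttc
Chrnb1, chr11:69795888-69796187, minus strand: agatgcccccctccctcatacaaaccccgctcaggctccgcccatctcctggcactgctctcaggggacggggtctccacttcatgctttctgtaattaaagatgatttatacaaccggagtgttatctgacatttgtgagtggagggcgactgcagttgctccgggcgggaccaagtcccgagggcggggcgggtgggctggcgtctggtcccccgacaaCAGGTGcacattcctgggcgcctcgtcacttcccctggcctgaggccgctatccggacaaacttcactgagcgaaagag

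The Chrna1 window held 3 of these E-boxes, starting 92, 73 and 44 bases before the start, and the Chrng window held 2, at 155 and 132 bases before it. The Chrne window held 1, at 138 bases before the start, and the Chrnb1 window 1, at 29 bases. Musk had 1, at 68 bases, and neither Dok7 window held these letters. For Musk too the start used lay inside the annotated gene. The E-boxes of Chrnb1 and Musk, though before the start used, lay inside the annotated genes. No matches overlapped each other. Of all 32851 promoter windows of the same length, 32.9% held at least 1 of the motifs, 7.37% at least 2 and 1.39% at least 3. The N-box of Chrne began 76 bases before the start, and 14.9% of all windows held that motif. A match is a description of the letters in this window and does not show that a factor binds there. The printed genes were picked by their differences, so their motif counts were not compared with those differences.

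Values are log2 signals made by the authors with RMA, a method that removes background, brings all arrays to a common distribution by quantile normalization and combines the probes of each set. Rras2, the targeted gene, had 9.33 ± 0.32 in shRras2 cells and 10.74 ± 0.08 in pLKO cells (SD, n = 3 each). Its signal in shRras2 replicates 4, 5 and 6 was 31.8%, 48.1% and 34.6% of the pLKO mean on the linear scale. In the limma fit over all 19505 genes, 1017 genes passed an adjusted p of 0.05, 584 higher and 433 lower in shRras2 cells; with each array centred on its median the split was 506 higher and 567 lower.

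Of the 9 genes, 2 passed that threshold, Chrna1 and Chrnd, both higher in shRras2 cells, against 2.99% of all genes called higher and 5.21% called in either direction. The difference was above 0 for 8 of the 9, with Chrnb1 the exception, against 46.8% of all genes. For 5 of them every shRras2 array lay above every pLKO array, which held for 11.6% of all genes; the opposite order, seen for 13.9% of all genes, occurred for none of the 9. The median difference was 0.30 over the 9 genes and -0.01 over all genes tested, on the log2 scale. Because the genes were chosen with this contrast known, these counts describe them and support nothing further.

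**Figure D1:**
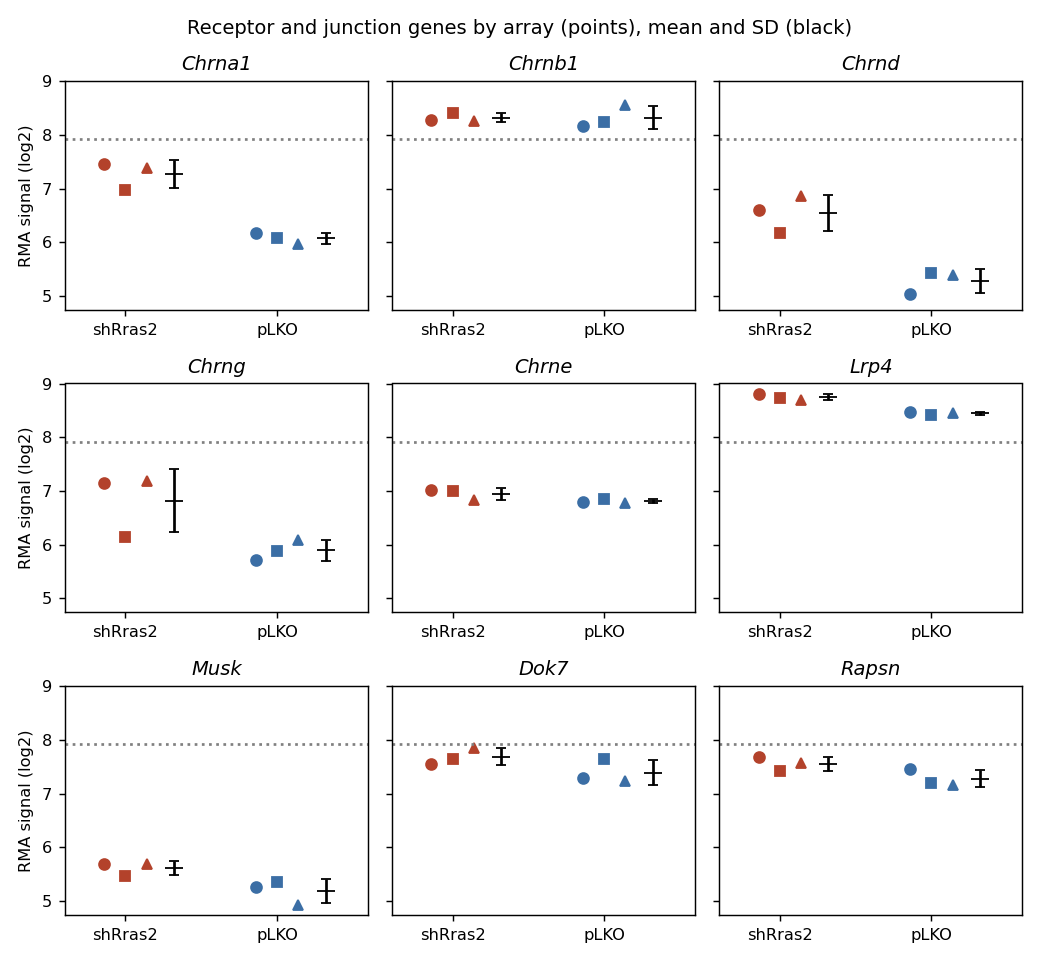
Log2 RMA signal of the 9 genes (y axis) on the 3 shRras2 arrays (red, left) and the 3 pLKO arrays (blue, right) of each panel, with group mean and SD in black. The dotted line is the 95th percentile of the negative-control probe sets (7.92). Chrna1, Chrnd, Chrng, Musk and Lrp4 have all shRras2 arrays above all pLKO arrays, and only Chrnb1 and Lrp4 lie above the dotted line.

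Most of these transcripts were dim. Across the 6 arrays, the log2 values of the 5222 negative-control probe sets centred on 5.02 (median), and 7.92 was their 95th percentile, called the background limit below. For 7 of the 9 genes both group means lay below that percentile, as did those of 57.1% of all genes. The exceptions were Chrnb1 and Lrp4, which lay above it in both groups. No detection calls come with these values. Differences of dim probe sets are compressed by background, so their folds are imprecise and can understate a change.

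Chrna1, the acetylcholine-binding alpha subunit present in every muscle receptor, had 7.45, 6.98 and 7.39 in shRras2 replicates 4, 5 and 6, against 6.18, 6.07 and 5.97 in pLKO replicates 1, 2 and 3. The groups did not overlap, and the gap between the lowest shRras2 array and the highest pLKO array was 0.80. The difference was 1.20 ± 0.13 on the log2 scale (SE), or 2.30-fold on the RMA scale (95% interval 1.88 to 2.82). The mean of Chrna1 stood above 90.5% of the negative controls in shRras2 cells and above 75.0% of them in pLKO cells.

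Chrnd, the delta subunit, had 6.61, 6.18 and 6.85 in shRras2 cells, against 5.03, 5.43 and 5.39 in pLKO cells. Here too the groups were separate, with a gap of 0.75. Its difference of 1.26 ± 0.17 (SE) was 2.40-fold (95% interval 1.83 to 3.16). In pLKO cells its mean lay above 58.0% of the negative controls, so the size of this difference rests on a level within the background range.

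Chrng, the fetal gamma subunit, had 7.15, 6.14 and 7.18 in shRras2 replicates 4, 5 and 6, against 5.71, 5.88 and 6.09 in pLKO replicates 1, 2 and 3. Replicates 4 and 6 were clearly higher than all pLKO arrays, while replicate 5 lay 0.05 above the highest of them. The difference was 0.93 ± 0.25 (SE) with an SD of 0.60 among the shRras2 arrays, the highest SD of the 9 genes in that group. Chrng did not pass the threshold with all 6 arrays; the difference was 0.75 to 1.03 in the 5 fits that leave out another array, none of which passed, and 1.27 without replicate 5, its lowest shRras2 array, where it passed. Chrnd and Chrng are adjacent genes on mouse chromosome 1, with 0 annotated genes between them in RefSeq.

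Chrne, the adult epsilon subunit, had 7.02, 7.01 and 6.83 in shRras2 cells, against 6.80, 6.85 and 6.78 in pLKO cells. The groups overlapped, and the difference was 0.14 ± 0.08 (SE, 95% interval -0.05 to 0.33). Both means of Chrne lay below the background limit, so a change at this signal could be missed.

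Chrnb1, the beta subunit, lay above the background limit in both groups. It had 8.29, 8.42 and 8.27 in shRras2 cells and 8.17, 8.24 and 8.56 in pLKO cells. The groups overlapped fully, and the 95% interval of the difference ran from -0.26 to 0.25. The group means differed by less than the SD of either group.

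The pathway that clusters the receptor is described next. Lrp4, the agrin receptor, had 8.81, 8.74 and 8.70 in shRras2 cells, against 8.47, 8.42 and 8.46 in pLKO cells. The groups were separate by 0.23, and the difference was 0.30 ± 0.07 (SE). It was the most tightly measured of the 9 genes, with SDs of 0.06 and 0.03. Lrp4 did not pass the threshold over all genes in this fit.

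Musk, the receptor tyrosine kinase activated through LRP4, had 5.68, 5.46 and 5.68 in shRras2 cells, against 5.26, 5.35 and 4.93 in pLKO cells. No array of one group overlapped the other, and the difference was 0.43 ± 0.12 (SE), which did not pass. The Musk means lay above 64.4% of the negative controls in shRras2 cells and above 55.5% in pLKO cells, so Musk cannot be told from background in either group on this array.

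Dok7, the cytoplasmic activator of MuSK, had 7.55, 7.65 and 7.86 in shRras2 cells and 7.28, 7.65 and 7.23 in pLKO cells. Its groups overlapped, with pLKO replicate 2 above shRras2 replicate 4. The difference was 0.30 ± 0.13 (SE). Rapsn, which encodes the scaffold that holds receptors in clusters, had 7.67, 7.41 and 7.57 in shRras2 cells and 7.47, 7.21 and 7.16 in pLKO cells, and its groups overlapped as well. Its difference was 0.27 ± 0.11 (SE). Neither gene passed the threshold.

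**Figure D2:**
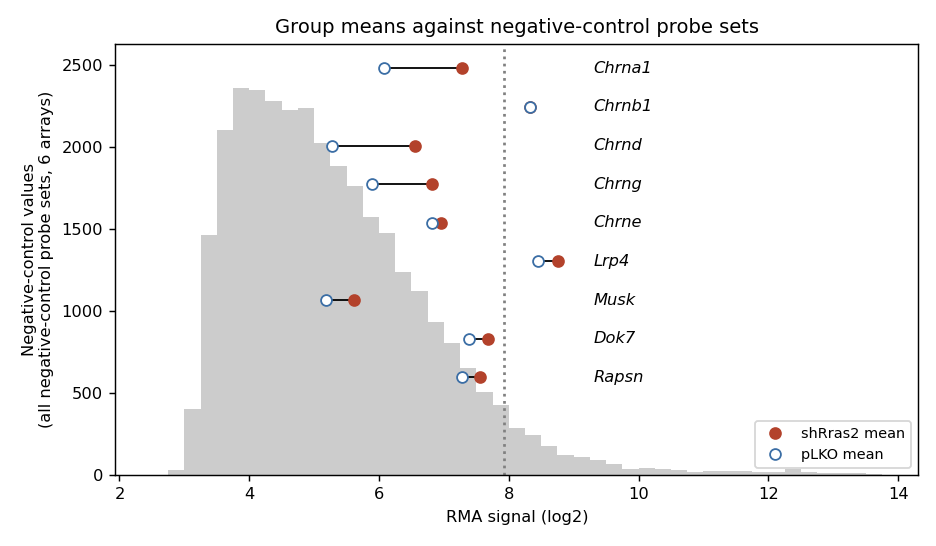
Group means of the 9 genes (filled red, shRras2; open blue, pLKO) on the log2 RMA scale (x axis), set over the distribution of all negative-control values (grey, y axis; the heights of the gene rows carry no value). The dotted line is the background limit of 7.92, and 7 of the 9 genes lie to its left in both groups.

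The 3 shRras2 arrays were not alike. Replicate 5 was the lowest of the 3 for Chrna1, Chrnd, Chrng, Musk and Rapsn, 5 of the 9 genes. Chrne and Lrp4 were lowest on replicate 6 and Dok7 on replicate 4. Chrnb1 was highest on replicate 5 and lowest on replicate 6. How often replicate 5 was the lowest over all genes was not counted. Relative to the pLKO mean, Chrng was 1.26 higher on replicate 4, 0.24 higher on replicate 5 and 1.29 higher on replicate 6, in log2 units. For Chrna1 these values were 1.38, 0.91 and 1.31, and for Chrnd 1.32, 0.90 and 1.57. Replicate 5 also kept the most Rras2 signal, as given above, and had the lowest signal of the 3 for Myog, which encodes myogenin (7.59, against 8.28 and 8.15 on replicates 4 and 6). The part of these in the spread of the receptor genes was not tested. The median of all genes on the 3 arrays lay between 7.25 and 7.28.

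**Figure D3:**
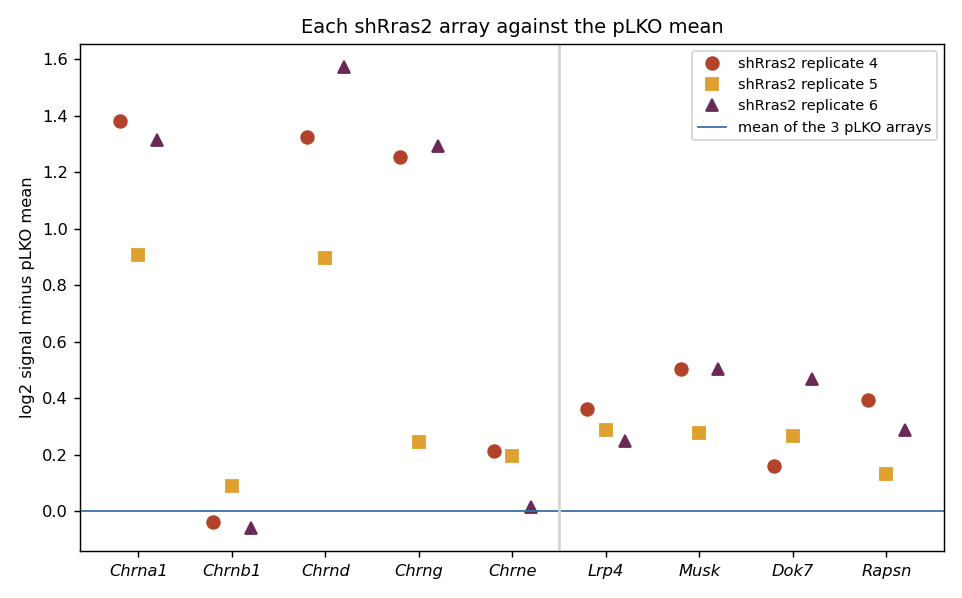
Log2 signal of each shRras2 array minus the mean of the 3 pLKO arrays (y axis) for the 5 subunit genes (left of the grey line) and Lrp4, Musk, Dok7 and Rapsn (right of it). Replicate 5 (squares) lies closest to the pLKO mean for Chrna1, Chrnd, Chrng, Musk and Rapsn, and the Chrnb1 points scatter around 0.

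Markers of other cells were read beside these values. Skeletal muscle markers were higher in shRras2 cells, as Chrna1 and Chrnd were. Of 11, 8 passed the threshold, all higher, against 2.99% of all genes called higher. The list's mean level was 7.94 to 8.59 on the shRras2 arrays and 6.49 to 6.60 on the pLKO arrays. Of the 11 markers, 4 lay below the background limit in both groups. The other 7 lay above it in shRras2 cells alone, so the sizes of their differences are imprecise. Among them the embryonic and perinatal myosin heavy chain genes Myh3 and Myh8 differed by 3.61 ± 0.24 and 2.99 ± 0.21 (SE; limma adjusted p = 0.000223 and 0.000262), with replicate 5 again the lowest of the shRras2 arrays for both. The part of muscle transcripts in the receptor gene values was not tested, and in bulk RNA more cells with muscle transcripts and more such RNA per cell cannot be told apart. Of 10 measured fibroblast markers, 6 had a group mean over the background limit. In the list 3 passed the threshold, all higher, against 2.99% of all genes called higher. They were the matrix genes Col3a1 by 0.69 and Dcn by 0.76 and the receptor gene Pdgfrb by 0.37. Dcn lay below the background limit in both groups. For 4 of the 10 every shRras2 array lay above every pLKO array, which held for 11.6% of all genes. The part of the fibroblast markers in the receptor gene values was not tested. The list had a mean of 9.50 to 9.70 on the shRras2 arrays and 9.40 to 9.41 on the pLKO arrays.

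Most nerve and Schwann cell markers were at background. Of 9 measured neuron markers only Tubb3, a tubulin gene, lay above the limit. It was 1.08 higher in shRras2 cells (SE 0.13), while the neurofilament gene Nefl, below the limit, fell by 1.18 (SE 0.16; limma adjusted p = 0.00336 and 0.00488). The markers Snap25 and Rbfox3 and the cholinergic genes Chat and Slc18a3, which mark motor nerve endings, lay below it. Of 5 Schwann cell markers only Pmp22 lay above it, and Sox10 did not. All 5 macrophage and all 5 endothelial markers lay below it. The mean level of the neuron list was 5.70 to 5.75 on the shRras2 arrays and 5.73 to 5.87 on the pLKO arrays, and that of the Schwann cell list was 6.79 to 6.94 and 6.86 to 6.96.

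The other genes of the junction were tested from a list of 93 genes in 6 roles, of which 86 were measured and the remainder not analysed here. Of the 86, 8 passed the threshold as higher in shRras2 cells and 2 as lower, against 2.99% and 2.22% of all genes, and 76 did not pass. The higher count was 5 without pLKO replicate 1 or 3, 4 without shRras2 replicate 4 and 3 without shRras2 replicate 6. Over all genes it was 584 with all arrays, and 324, 301, 280 and 284 in those fits, in the same order. The lower count was 1 without shRras2 replicate 4 and 4 without shRras2 replicate 5. Over all genes it was 433 with all arrays, and 112 and 452 in those fits. The median difference was -0.002 over the list and -0.01 over all genes. Both group means lay below the background limit for 37 of the 86.

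Among 18 measured genes of agrin-MuSK signalling 1 passed, against 5.21% of all genes called in either direction. Agrn, which encodes the ligand agrin, had 9.87, 9.38 and 9.65 in shRras2 cells, against 8.88, 9.05 and 8.87 in pLKO cells. All shRras2 arrays were above all pLKO arrays, and Agrn rose by 0.70 ± 0.13 (SE; limma adjusted p = 0.0156), with signals far above background in both groups. The call was lost without pLKO replicate 1 or 3 or shRras2 replicate 4 or 6 (adjusted p = 0.0511 to 0.0663). The adaptor genes Crk and Crkl, which bind phosphorylated DOK7, had differences of -0.25 ± 0.10 and 0.03 ± 0.07, neither past the threshold (adjusted p = 0.203 and 0.874).

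In the synaptic cleft matrix 4 of 13 genes rose, against 2.99% of all genes called higher, and none of the others passed. The laminin chain gene Lama2 rose by 0.83 ± 0.17, Lama4 by 0.51 ± 0.11 and Lamb2, the beta chain concentrated at synapses, by 0.39 ± 0.09 (limma adjusted p = 0.0294, 0.0317 and 0.0424). The basement membrane linker gene Nid2 rose by 0.61 ± 0.09 (adjusted p = 0.00583). Only Nid2 of these stayed past the threshold in all 6 fits that leave out 1 array; the others were lost without shRras2 replicate 4 or 6, Lama2 also without shRras2 replicate 5, Lama4 also without pLKO replicate 1 or 3, and Lamb2 also on leaving out any 1 of the pLKO arrays (adjusted p = 0.056 to 0.144 over these fits). Lamb2 also did not pass with each array centred on its median (adjusted p = 0.0621). Ache, which encodes the enzyme that breaks down acetylcholine, and Colq, its collagen anchor, had differences of -0.23 ± 0.08 and -0.12 ± 0.09, neither past the threshold (adjusted p = 0.16 and 0.56). Lama2, Lama4, Ache and Colq lay below the background limit in both groups.

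In the postsynaptic membrane scaffold 2 of 11 genes rose, against 2.99% of all genes called higher. Sorbs2, an adaptor of actin-linked structures, had 7.76, 6.38 and 7.06 in shRras2 cells, against 4.77, 5.09 and 4.74 in pLKO cells. Its groups were far apart, with replicate 5 again the lowest shRras2 array, and the difference was 2.20 ± 0.29 (SE; limma adjusted p = 0.00432). Both Sorbs2 means lay below the background limit, so its size is imprecise. Sntb1, a syntrophin of the dystrophin complex, rose by 0.86 ± 0.10 (adjusted p = 0.00293). Utrn, which encodes utrophin, the dystrophin relative enriched at the junction, had a difference of 0.14 ± 0.09, which was not past the threshold (adjusted p = 0.46).

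Among 18 genes of synaptic gene transcription 1 rose and 1 fell, against 2.99% of all genes called higher and 2.22% called lower. Myog had 8.28, 7.59 and 8.15 in shRras2 cells, against 7.05, 7.06 and 6.70 in pLKO cells, and rose by 1.07 ± 0.18 (SE; limma adjusted p = 0.0111); its pLKO mean lay below the background limit, and the call was lost without shRras2 replicate 6 (adjusted p = 0.0534). Etv5, an ETS factor needed for synaptic transcription in mouse muscle, had 8.50, 8.59 and 8.34 in shRras2 cells, against 9.56, 9.44 and 9.74 in pLKO cells, and fell by 1.10 (SE 0.10; adjusted p = 0.00108). Both genes had separate groups, in opposite directions. Myod1, with a difference of 0.68 ± 0.18 (adjusted p = 0.0743), and Myf5, with 0.11 ± 0.12 (adjusted p = 0.712), did not pass. Myod1, Myf5 and, of the genes named next, Erbb3 lay below the background limit in both groups, so a change could be missed. The nerve-derived factor gene Nrg1 and its receptor genes Erbb2 and Erbb3 differed by -0.08 ± 0.08, -0.13 ± 0.09 and -0.14 ± 0.08, and Gabpa, which encodes the N-box-binding subunit of GABP, by -0.11 ± 0.09 (adjusted p = 0.675, 0.483, 0.366 and 0.53); none of the 4 passed.

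Other acetylcholine receptor genes were all below the background limit in both groups. Of these 16 neuronal nicotinic and muscarinic genes, 1 fell, against 2.22% of all genes called lower. Chrna7, the subunit of the homomeric neuronal receptor, had 6.16, 6.29 and 6.23 in shRras2 cells, against 6.88, 6.68 and 7.06 in pLKO cells, with all shRras2 arrays below all pLKO arrays. It fell by 0.65 on the log2 scale (SE 0.11; limma adjusted p = 0.011), and the call was lost without shRras2 replicate 4 (adjusted p = 0.0537). Of 10 genes for receptor assembly in the endoplasmic reticulum and Golgi, 0 passed in limma and 1 had an unadjusted p under 0.05.

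**Figure D4:**
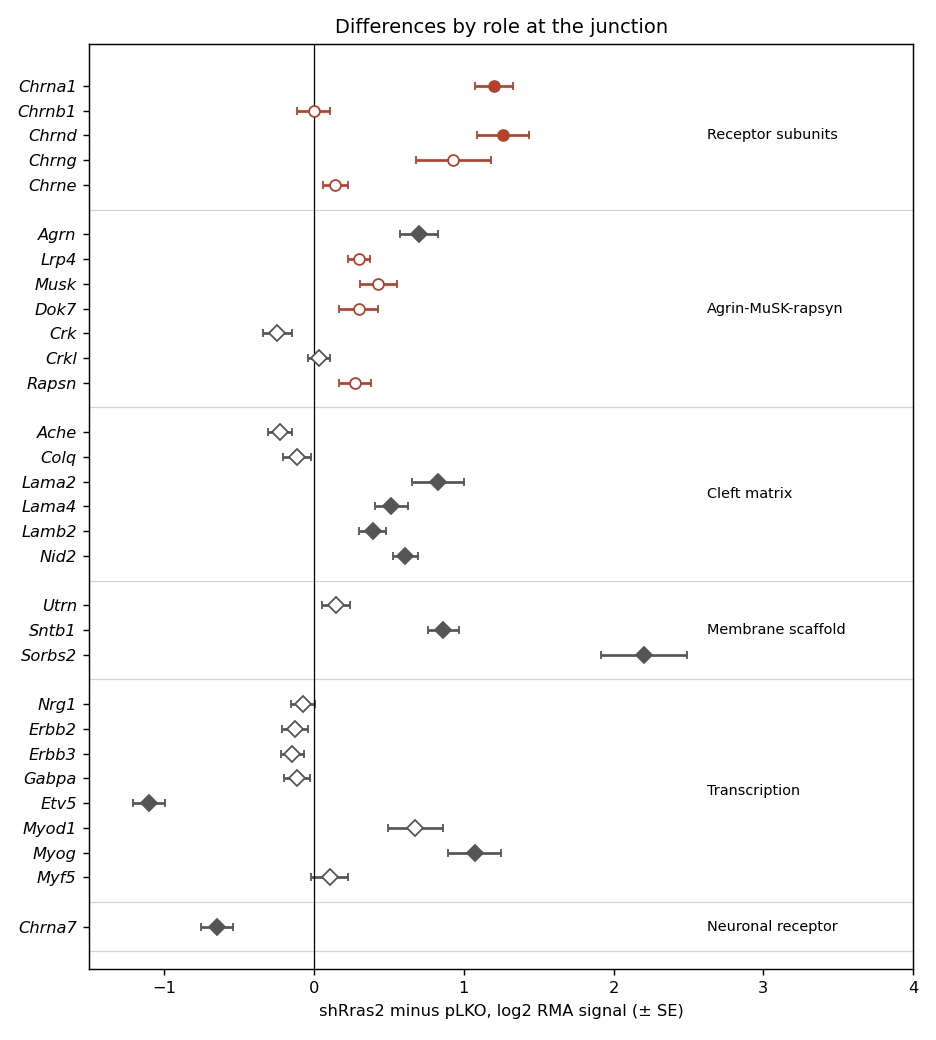
Difference of shRras2 minus pLKO in log2 RMA signal (x axis, ± SE from limma) for the 9 genes (red circles) and the named genes of the junction list (grey diamonds), grouped by role. Filled symbols passed an adjusted p of 0.05 over all 19505 genes: Chrna1, Chrnd, Agrn, Lama2, Lama4, Lamb2, Nid2, Sorbs2, Sntb1 and Myog to the right of 0, and Etv5 and Chrna7 to the left.

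The genes whose signal followed Chrna1 most closely over the 6 arrays, among 8211 other genes above the background limit in at least 1 group and with a symbol that is not a predicted or unnamed one, were Nfe2l1, Cacng1 and Lmo7, with Pearson r of 0.9996, 0.9993 and 0.9985. Cacng1 encodes a subunit of the skeletal muscle calcium channel. Differences of these genes follow from the way they were picked and are given with no test: 0.38 ± 0.08 for Nfe2l1, 1.33 ± 0.15 for Cacng1 and 0.91 ± 0.10 for Lmo7 (SE). Cacng1 lay above the background limit in shRras2 cells alone. For Chrnd they were Uevld, Mr1 and Gng2, with r of 0.995, 0.994 and 0.992 and differences of 0.19 ± 0.08, 1.13 ± 0.14 and 0.53 ± 0.10. Mr1 too lay above the limit in shRras2 cells alone. All points share the same 6 arrays in 2 groups, so genes clearly higher in shRras2 cells score high. An r over 0.9 was reached by 653 genes with Chrna1 and 499 with Chrnd.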

How the data were processed

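Expression was measured on 6 Affymetrix arrays of Rras2(Q72L) fibrosarcoma cells, 3 shRras2 and 3 pLKO. The authors deposited log2 signals, 1 per probe set and array; the submitters' processing notes name RMA and R 3.6.3, and the RMA package version is not given in the sources used here. Of 29129 probe sets, 6923 are controls, and the platform annotation gave 1 symbol to 19572, several to 0 and none to 2634 transcript probe sets. The RefSeq table of GRCm38.p6, which served for names, held each of their Entrez identifiers. The brightest probe set was kept for 55 genes with several.

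Groups were compared in R 4.3.3 by limma 3.58.1, using lmFit and eBayes without covariates; p-values are two-sided, Benjamini-Hochberg adjusted over 19505 genes, with a threshold of 0.05. Residual degrees of freedom were 4 and prior degrees of freedom 4.85. Precision is limited by the number of arrays: the SE of a difference was 0.096 at the median gene. The fit was tested on simulated data with independent noise, which cannot test a batch, technical spread or compression near background. The 9 genes, the gene lists and the tests were chosen with earlier results of these data known. Named genes are the 9, up to 4 members of each role list with the largest changes past the threshold and up to 2 in the other direction, and a set named whatever their values. At most 7 values were identical between any pair of arrays. Alternatives were other normalizations, a filter on dim genes, averaged probe sets, other variance models and leaving out each array.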

Additional observations from a re-analysis of the deposited data

How the results depend on the processing

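No paired analysis was possible because the groups share no replicate number. Chrna1 and Chrnd passed the threshold in all 6 fits that leave out 1 array, with differences from 1.11 to 1.35 and from 1.11 to 1.45. They also passed in all 7 other alternatives. Averaging probe sets, among these 7, could not change their values, because each had a single probe set. All 9 genes were chosen with this contrast known, so passes of any of them are a description and support nothing further. Chrng passed in 1 of the 6 fits that leave out 1 array, without shRras2 replicate 5. Of the 7 others it passed in 1, with array weights, where replicate 5 had the lowest weight (0.65). Its differences ran from 0.75 to 1.27 on leaving out 1 array. Lrp4 passed with cyclic loess, without the dimmest 30% of genes and with eBayes trend and robust settings, 3 of these 7 alternatives. It passed in 0 of the 6 fits that leave out 1 array. Musk was among the genes left out by the dim filter. In the junction list, 3 to 8 genes were higher and 1 to 4 lower on leaving out 1 array, and 11 were higher and 6 lower with trend and robust settings. Over all genes the counts ran from 280 to 684 higher and from 112 to 452 lower on leaving out 1 array, with 965 higher and 943 lower under trend and robust settings. The causes were not tested. Lamb2 did not pass with median centring (0.35, adjusted p = 0.0621). Signals within the negative-control range limit what can be said of 7 of the 9 genes.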
